A study of Homo sapiens with 15 samples.

Results

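Bone morphogenetic proteins (BMPs) and growth differentiation factors (GDFs) are secreted ligands of the TGF-β superfamily. BMP2, BMP4, BMP6 and GDF5 bind pairs of type I and type II serine/threonine kinase receptors, which phosphorylate SMAD1, SMAD5 and SMAD9, and these SMADs enter the nucleus with SMAD4 and raise transcription of the ID genes. Secreted antagonists such as gremlin 1 (GREM1) and noggin (NOG) trap the ligands before they reach a receptor, while inhibitory SMADs and SMURF ubiquitin ligases damp the signal inside the cell. ID1, ID2 and ID3 are helix-loop-helix proteins without a DNA-binding region that hold E proteins off DNA. GDF15 is a distant relative that signals through a receptor of its own in the brainstem and is best known as a cytokine secreted by stressed cells.

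The 9 genes described here are 5 BMP and GDF ligands (GDF5, GDF15, BMP2, BMP4 and BMP6), the antagonist GREM1, and the targets ID1, ID2 and ID3. They were picked by name, with results of these data known, from the 17138 genes listed in at least one of the MRC5 and H196 expression tables, and all 9 are listed in both. Their differences between groups are therefore given as a description, with no p-value. MRC5 is a line of human lung fibroblasts, H196 is a small cell lung cancer (SCLC) line of the non-neuroendocrine (non-NE) kind, and H69 is a neuroendocrine (NE) SCLC line. For a week MRC5 cells were kept in mono-culture (the group MRC5_Mo), beside H69 cells (MRC5_coH69) or beside H196 cells (MRC5_coH196). H196 cells were likewise kept in mono-culture (H196_Mo) or beside MRC5 cells (H196_Co). The partners were separated by the membrane of a transwell insert, so that medium but not cell contact was shared, and no drug or gene edit was used. The methods give RPMI medium for the SCLC lines and MEM for MRC5 cells, but do not state the medium of the co-cultures. A change of medium against mono-culture, if there was one, cannot be told apart from the partner. Each group has 3 libraries of oligo(dT)-selected RNA, 15 in all, read on the BGIseq-500. Each kind of cell is a single purchased line, nothing says that the libraries came from separate experiments, and any p-value below measures only the spread between these libraries. H69 cells themselves were not sequenced here.

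Expected counts per library summed to between 16073597 and 19170560, and a count of 3 was worth 0.156 to 0.187 CPM, the unit of counts scaled to library depth. All 8 fibroblast markers checked were found in MRC5 libraries, with a summed level of 25600 to 28500 CPM in MRC5_Mo, 29300 to 30700 CPM in MRC5_coH69 and 13800 to 14200 CPM in MRC5_coH196, against 1.97 to 3.12 CPM in the H196 libraries. The 5 epithelial markers summed to 20.3 to 22.5 CPM in MRC5_Mo and 38.4 to 44.6 CPM in MRC5_coH196, and 4 markers of non-NE SCLC, which fibroblasts hold too, to 7190 to 7580 and 10900 to 11300 CPM. Of the epithelial markers, CDH1, ELF3 and ESRP1 had at most 3 counts in every library of these MRC5 groups. In H196 cells the epithelial markers summed to only 0.456 to 0.596 CPM in H196_Mo and 0.669 to 0.961 CPM in H196_Co. What part these marker levels have in the differences below was not tested. Of 7 NE markers, only SYP is listed in the MRC5 table, at up to 0.361 CPM. In H196 cells 4 of the 7 are listed, and they summed to 17.8 to 19.6 CPM in H196_Mo and 18.5 to 19.8 CPM in H196_Co. The 4 non-NE markers summed to 5130 to 5580 CPM in H196_Mo and 5840 to 6220 CPM in H196_Co. RNA of the partner was followed with 99 genes found in H196_Mo at 20 CPM or more and in MRC5_Mo under 0.5 CPM. Their summed level was 9.09 to 9.95 CPM in MRC5_Mo and 26.1 to 66.3 CPM in MRC5_coH196, which is 0.333% to 0.847% of that in H196_Mo. The converse set of 159 MRC5 genes stood at 108% to 110% of the MRC5_Mo level in MRC5_coH196, at 0.0546% to 0.059% of the MRC5_Mo level in H196_Co and 0.0412% to 0.0432% in H196_Mo. In such bulk libraries, fewer cells that express a gene and less RNA per cell cannot be told apart.

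The promoters of 8 of the 9 genes, all but BMP2, were matched by symbol in RefSeq (GRCh38.p14). The 250 bases before the annotated start are shown for GDF5 and GDF15, which differed most in MRC5_coH196, for BMP6, which differed most among the genes fitted in H196_Co, and for the 3 ID genes, which are compared as a family. Each runs from 5′ to 3′ on the strand of the gene. BMP4 and GREM1, which have several starts each, are described by their motifs. Capitals mark matches on either strand to GGCGCC (a GC-rich site of BMP-activated SMADs), ACGTG (the core of the hypoxia response element, which the E-box CACGTG contains), TGACGTCA (the cAMP response element), TTGCATCA (a composite site of C/EBP and ATF factors), GTCTAGAC (a SMAD palindrome), CCAAT and TATAAA.
GDF5 (chr20:35454750-35454999, minus strand): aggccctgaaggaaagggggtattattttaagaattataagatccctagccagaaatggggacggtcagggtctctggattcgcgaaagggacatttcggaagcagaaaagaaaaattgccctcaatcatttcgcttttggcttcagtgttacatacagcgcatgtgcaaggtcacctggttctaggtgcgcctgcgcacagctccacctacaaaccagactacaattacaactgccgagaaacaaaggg
GDF15 (chr19:18385908-18386157, plus strand): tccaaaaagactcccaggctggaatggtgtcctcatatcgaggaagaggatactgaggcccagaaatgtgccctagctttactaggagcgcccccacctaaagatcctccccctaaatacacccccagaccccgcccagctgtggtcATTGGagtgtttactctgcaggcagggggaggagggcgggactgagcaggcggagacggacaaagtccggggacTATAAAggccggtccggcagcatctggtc
BMP6 (chr6:7725849-7726098, plus strand): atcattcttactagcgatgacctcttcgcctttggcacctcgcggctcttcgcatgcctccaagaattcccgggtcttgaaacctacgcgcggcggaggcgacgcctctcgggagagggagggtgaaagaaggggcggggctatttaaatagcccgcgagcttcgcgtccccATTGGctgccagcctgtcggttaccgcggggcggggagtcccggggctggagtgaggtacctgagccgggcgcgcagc
ID1 (chr20:31605039-31605288, plus strand): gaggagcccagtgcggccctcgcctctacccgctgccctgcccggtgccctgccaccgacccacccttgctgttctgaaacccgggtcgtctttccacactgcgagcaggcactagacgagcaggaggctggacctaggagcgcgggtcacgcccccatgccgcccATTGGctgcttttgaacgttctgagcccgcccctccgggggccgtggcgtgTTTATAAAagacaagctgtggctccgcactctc
ID2 (chr2:8681806-8682055, plus strand): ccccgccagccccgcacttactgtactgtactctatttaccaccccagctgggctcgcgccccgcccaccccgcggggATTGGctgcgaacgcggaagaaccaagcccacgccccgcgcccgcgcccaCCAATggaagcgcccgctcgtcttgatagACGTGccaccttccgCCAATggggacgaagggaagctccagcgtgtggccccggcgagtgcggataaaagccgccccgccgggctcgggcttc
ID3 (chr1:23559502-23559751, minus strand): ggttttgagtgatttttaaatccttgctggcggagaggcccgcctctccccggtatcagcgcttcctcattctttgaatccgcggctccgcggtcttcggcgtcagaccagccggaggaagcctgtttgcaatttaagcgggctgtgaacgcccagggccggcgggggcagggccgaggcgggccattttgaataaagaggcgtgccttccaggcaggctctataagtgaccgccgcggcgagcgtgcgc
None of the 6 windows shown holds GGCGCC, TGACGTCA, TTGCATCA or GTCTAGAC, which occur in 16.4%, 1.65%, 0.772% and 0.182% of all 35116 RefSeq windows of this length. CCAAT, found in 32% of all windows, begins 103 bases before the start of GDF15, 78 before that of BMP6, 84 before that of ID1, and 172, 122 and 78 bases before that of ID2. TATAAA, found in 10.7% of all windows, begins 29 bases before the start of GDF15, and 2 overlapping matches begin 33 and 31 bases before the start of ID1. ACGTG, found in 18.5%, begins 93 bases before the start of ID2. The windows of GDF5 and ID3 hold none of the motifs. G and C make up 47.6% of the GDF5 window and 58.4% to 69.2% of the other 5, with a median of 58% over all windows. Among windows not shown, GGCGCC occurs at 83 and 52 bases before one of the 2 starts of GREM1 and at 232 bases before one of the 3 starts of BMP4, and CACGTG, found in 6.34% of all windows, at 83 bases before another BMP4 start. A match describes the letters of a window and is not evidence of binding.

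Among the ligands, GDF5 and GDF15 differed most between MRC5_coH196 and MRC5_Mo cells, in opposite directions. GDF5 was 6.44-fold lower and GDF15 3.75-fold higher beside H196 cells, BMP4 was 2.09-fold lower, and BMP2 was 1.5-fold higher. Beside H69 cells BMP2 was 1.45-fold higher, and GDF5, GDF15 and BMP4 each differed by at most 1.16-fold. Among the ligands fitted in H196 cells the highest difference was that of BMP6, 1.67-fold higher in co-culture. Levels are given below as FPKM, read fragments scaled by the length of a gene and the depth of a library. Log2 fold changes come from a count model with TMM scaling, and their standard error (SE) is over 3 libraries per group.

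**Figure D1:**
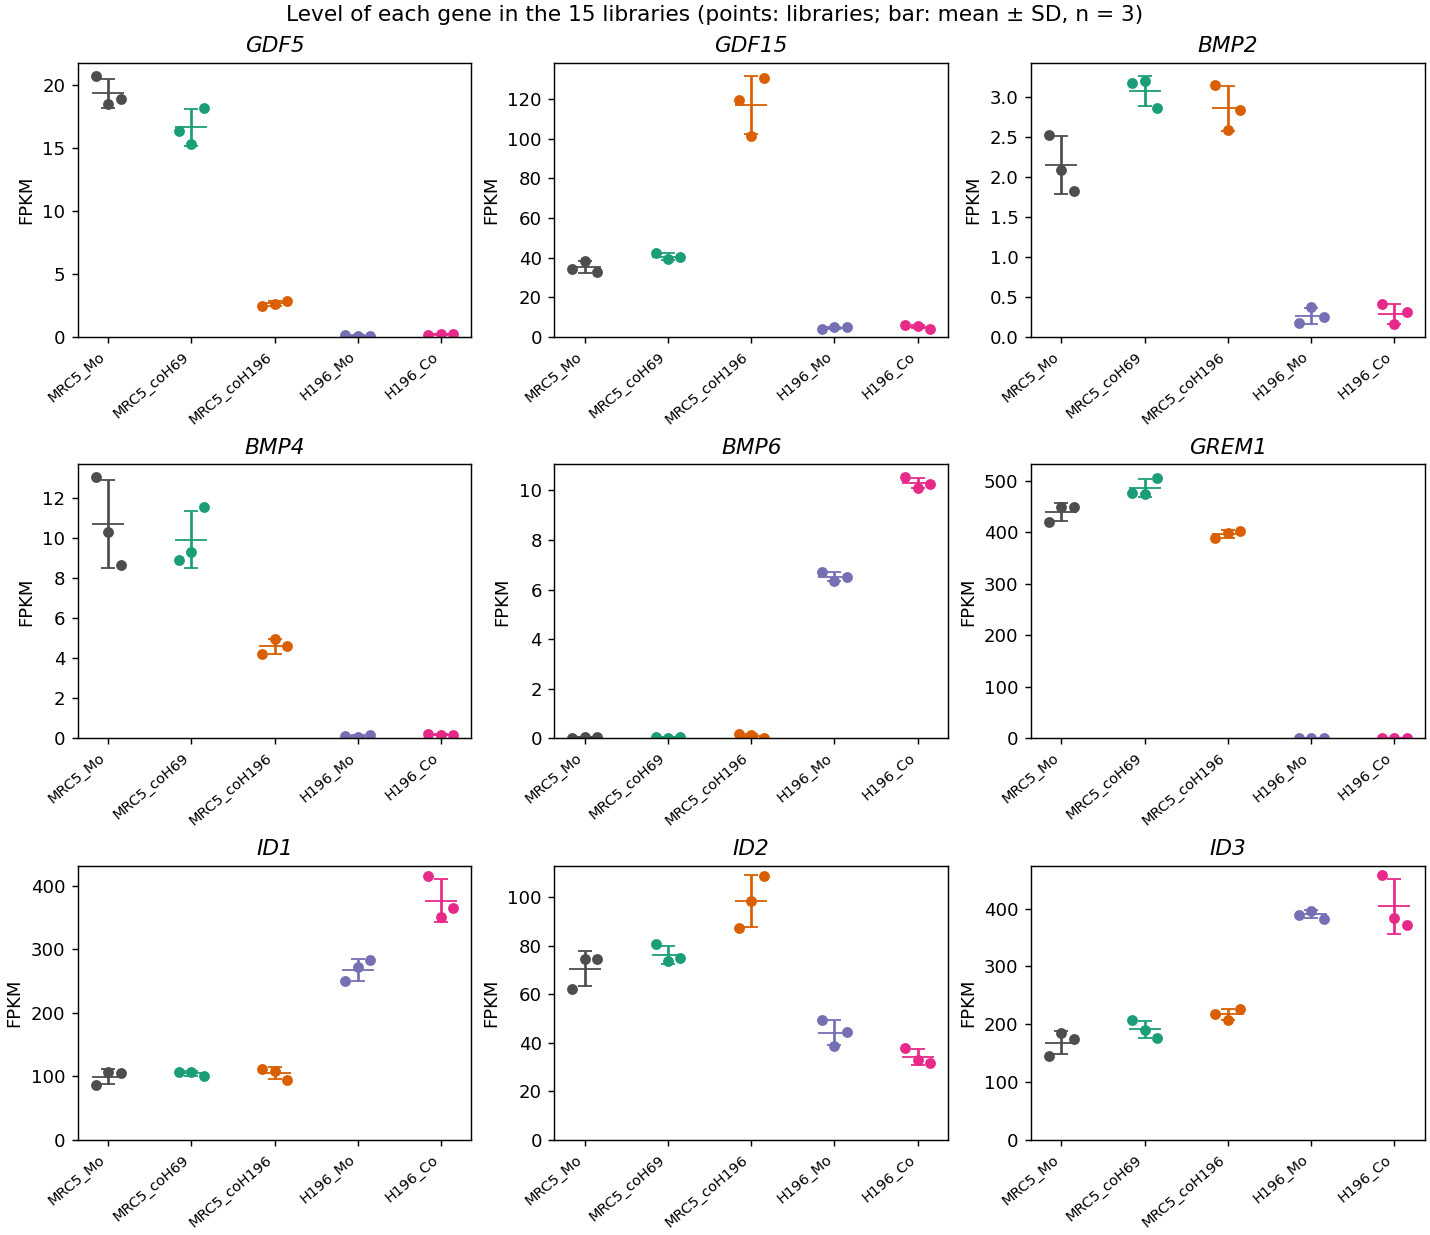
FPKM (y axis, linear, from 0) of each of the 9 genes in the 5 groups (x axis), with a point per library and a bar for mean ± SD of 3 libraries. GDF5 was at 2.46 to 2.86 FPKM in MRC5_coH196 against 18.47 to 20.67 in MRC5_Mo, GDF15 was at 101.38 to 130.59 against 33.02 to 38.48, and BMP6 was at most 0.16 FPKM in MRC5 libraries.

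GDF5 (gene ID 8200, chr20:35433347-35454749 on the minus strand in GRCh38.p13), a ligand known from joint and cartilage formation, was read at 20.67, 18.47 and 18.89 FPKM in the 3 MRC5_Mo libraries. It was at 16.32, 15.26 and 18.11 FPKM in MRC5_coH69 and at 2.46, 2.65 and 2.86 FPKM in MRC5_coH196. All 3 MRC5 groups were apart, with MRC5_coH69 slightly below MRC5_Mo and MRC5_coH196 far below both. The log2 fold change was −2.69 (SE 0.087) for MRC5_coH196 against MRC5_Mo, −0.21 (SE 0.063) for MRC5_coH69 against MRC5_Mo and −2.47 (SE 0.088) between the co-cultures. In H196 cells GDF5 was counted 6, 4 and 3 times in H196_Mo and 7, 9 and 10 times in H196_Co. These groups did not overlap, but the gene lay under the filter on low counts in that table and has no fitted fold change. The MRC5-specific genes, taken with the GDF5 level of MRC5_coH196, correspond to 0.0033 to 0.0035 CPM of GDF5 in H196_Co libraries, where 0.424 to 0.608 CPM were measured. The antisense gene GDF5OS and a miRNA gene overlap GDF5 in GENCODE, and whether counting used the strand is not stated in the sources used here.

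GDF15 (gene ID 9518, chr19:18374731-18389176 as the table gives it, plus strand), the stress cytokine, was at 34.06, 38.48 and 33.02 FPKM in MRC5_Mo and at 42.19, 39.17 and 40.35 FPKM in MRC5_coH69. In MRC5_coH196 it reached 119.41, 101.38 and 130.59 FPKM, with every library above all 6 others of MRC5. The log2 fold change against MRC5_Mo was 1.91 (SE 0.076) in MRC5_coH196 and 0.21 (SE 0.084) in MRC5_coH69, and it was 1.70 (SE 0.074) between the co-cultures. H196 cells held less GDF15, at 4.24, 5.09 and 4.90 FPKM in H196_Mo and 5.84, 5.36 and 4.32 FPKM in H196_Co, and their groups overlapped (log2 fold change 0.18, SE 0.15). Partner RNA at the level of the H196 marker genes corresponds to 0.017 to 0.042 CPM of GDF15 in the MRC5_coH196 libraries, where 99.2 to 131 CPM were measured. The ratio of GDF15 to GDF5 within a library was 1.83 ± 0.228 (SD, n = 3) in MRC5_Mo, 2.46 ± 0.201 in MRC5_coH69 and 44.2 ± 5.31 in MRC5_coH196.

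BMP2 and BMP4 are close relatives that act through the same receptors and are known from bone, limb and lung development. BMP4 (gene ID 652, chr14:53949736-53962357 as the table gives it, minus strand) was at 13.05, 10.30 and 8.69 FPKM in MRC5_Mo, 8.93, 9.30 and 11.56 FPKM in MRC5_coH69 and 4.23, 4.98 and 4.64 FPKM in MRC5_coH196. The MRC5_coH196 libraries lay below all others, and MRC5_Mo and MRC5_coH69 overlapped. The log2 fold change against MRC5_Mo was −1.06 (SE 0.13) in MRC5_coH196 and −0.09 (SE 0.11) in MRC5_coH69. BMP2 (gene ID 650, chr20:6767686-6780246, plus strand) moved the other way, with 2.53, 2.09 and 1.82 FPKM in MRC5_Mo, 3.17, 3.20 and 2.86 FPKM in MRC5_coH69 and 3.15, 2.59 and 2.84 FPKM in MRC5_coH196. Both co-cultures lay above MRC5_Mo and overlapped each other. BMP2 was the one ligand whose difference was of like size with either partner, at 0.59 (SE 0.12) with H196 cells and 0.53 (SE 0.12) with H69 cells on the log2 scale, and 0.06 (SE 0.11) between them. The BMP2 value with H196 cells stood just past the 0.58 limit used here, and it was 0.48 to 0.73 when single libraries were left out. The ratio of BMP2 to BMP4 was 0.202 ± 0.00782 (SD, n = 3) in MRC5_Mo, 0.315 ± 0.0592 in MRC5_coH69 and 0.626 ± 0.113 in MRC5_coH196. In H196 cells both were close to the floor, with 9 to 23 counts of BMP2 and 2 to 5 counts of BMP4 per library.

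BMP6 (gene ID 654, chr6:7726099-7881728, plus strand), known as the ligand that sets hepcidin and iron balance in the liver, was the most expressed of these 3 BMP genes in the tumor cells. It was at 6.70, 6.33 and 6.52 FPKM in H196_Mo and 10.52, 10.09 and 10.26 FPKM in H196_Co. The H196_Co libraries were all higher, by 0.74 on the log2 scale (SE 0.079), and their spread was small, at 0.217 FPKM (SD, n = 3). MRC5 libraries held 1, 4 and 3 counts in MRC5_Mo, 4, 1 and 4 counts in MRC5_coH69 and 11, 10 and 2 counts in MRC5_coH196, so 7 of the 9 libraries held 1 to 4 counts, at or near the floor of 3. The 2 libraries with 11 and 10 counts are also those with the highest summed level of the H196-specific genes, at 58.7 and 66.3 CPM against 26.1 CPM in the third MRC5_coH196 library. BMP6 there was 1.69%, 1.55% and 0.307% of its H196_Co level, beside 0.75%, 0.847% and 0.333% for the H196-specific genes. The part of partner RNA in these counts was not tested.

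The antagonist GREM1 (gene ID 26585, chromosome 15), which binds BMP2 and BMP4 and keeps them from their receptors, was by far the most abundant of the 9 genes in fibroblasts and nearly absent from H196 cells. It was at 420.34, 450.34 and 448.97 FPKM in MRC5_Mo and at 477.35, 474.09 and 506.69 FPKM in MRC5_coH69. In MRC5_coH196 it was at 389.18, 399.41 and 402.84 FPKM, below all other MRC5 libraries. On the TMM scale the MRC5_coH196 libraries overlapped those of MRC5_Mo instead, with a log2 fold change of 0.00 (SE 0.041), so the direction for GREM1 depended on the scaling. The median of all genes in this comparison was 0.00 on the TMM scale and −0.13 on the log2(FPKM + 1) scale, where GREM1 stood at −0.15. With H69 cells GREM1 was higher on both scales, by 0.16 (SE 0.041). H196_Mo libraries held 0 counts of GREM1, which allows up to 0.173 to 0.187 CPM by counting error, and H196_Co libraries 2, 2 and 1 counts. The ratio of GREM1 to the sum of BMP2 and BMP4 was 53.1 ± 0.639 (SD, n = 3) in MRC5_coH196 against 35.3 ± 7.92 in MRC5_Mo and 37.5 ± 2.19 in MRC5_coH69.

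**Figure D2:**
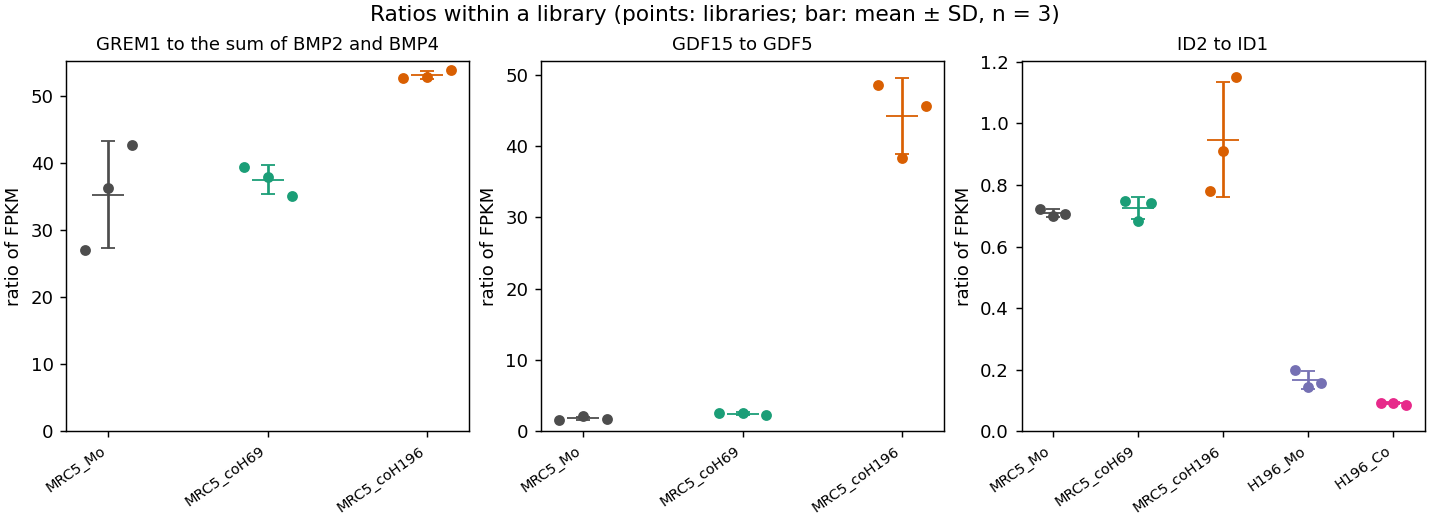
FPKM ratios within a library (y axis, linear, from 0) by group (x axis), with a point per library and a bar for mean ± SD of 3 libraries. The ratio of GREM1 to BMP2 plus BMP4 was 52.7 to 53.9 in MRC5_coH196 and at most 42.7 in other MRC5 libraries, that of GDF15 to GDF5 was 38.3 to 48.5 against at most 2.59, and that of ID2 to ID1 was lower in H196_Co than in H196_Mo.

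The ID genes were abundant in both kinds of cells. ID1 and ID3 were higher in H196 than in MRC5 libraries and ID2 was lower, on FPKM values that come from 2 tables normalized separately, so no test was made between them. In MRC5_coH196 the 3 genes differed from MRC5_Mo by 0.25 to 0.65 on the log2 scale, with ID2 highest, whereas in H196_Co ID1 was higher by 0.58 and ID2 at −0.29, with overlapping libraries for ID2 in CPM.

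ID1 (gene ID 3397, chr20:31605289-31620851 as the table gives it, plus strand) was at 249.66, 271.87 and 283.19 FPKM in H196_Mo and 415.30, 351.44 and 364.95 FPKM in H196_Co. Every H196_Co library was above every H196_Mo library, with a log2 fold change of 0.58 (SE 0.081) that ranged from 0.49 to 0.64 over the alternatives. In fibroblasts it was at 86.01, 106.62 and 105.80 FPKM in MRC5_Mo, 107.48, 107.68 and 100.93 FPKM in MRC5_coH69 and 111.91, 108.38 and 94.65 FPKM in MRC5_coH196. These overlapped on the FPKM scale, and on the TMM scale MRC5_coH196 was higher by 0.25 (SE 0.067). The direction of ID1 between the co-cultures was 0.17 on the TMM scale and as low as −0.01 on FPKM scales.

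ID2 (gene ID 3398, chr2:8682056-8684461, plus strand) was at 62.24, 74.64 and 74.53 FPKM in MRC5_Mo, 80.54, 73.50 and 74.91 FPKM in MRC5_coH69 and 87.44, 98.52 and 108.80 FPKM in MRC5_coH196. The MRC5_coH196 libraries lay above all others, by 0.65 (SE 0.067) against MRC5_Mo on the log2 scale. In H196 cells it was at 49.37, 38.88 and 44.37 FPKM alone and 37.85, 32.79 and 31.64 FPKM in co-culture. The H196_Co libraries were below those of H196_Mo in FPKM but overlapped them in CPM (log2 fold change −0.29, SE 0.09). The ratio of ID2 to ID1 was 0.947 ± 0.187 (SD, n = 3) in MRC5_coH196 and 0.709 ± 0.0125 in MRC5_Mo, while in H196 cells it was 0.0904 ± 0.00337 in co-culture and 0.166 ± 0.0285 alone. The antisense gene ID2-AS1 overlaps ID2 in GENCODE.

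ID3 (gene ID 3399, chromosome 1) was at 145.52, 184.66 and 174.31 FPKM in MRC5_Mo, 207.01, 190.18 and 176.85 FPKM in MRC5_coH69 and 217.88, 208.00 and 225.63 FPKM in MRC5_coH196. The MRC5_coH196 libraries were above those of both other groups, and MRC5_Mo and MRC5_coH69 overlapped. The log2 fold change against MRC5_Mo was 0.54 (SE 0.065) with H196 cells and 0.18 (SE 0.066) with H69 cells. In H196 cells ID3 was at 389.67, 396.45 and 382.70 FPKM alone and 458.46, 383.20 and 371.72 FPKM in co-culture. These groups overlapped (log2 fold change 0.14, SE 0.079), and the higher mean in co-culture rested on 1 library.

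**Figure D3:**
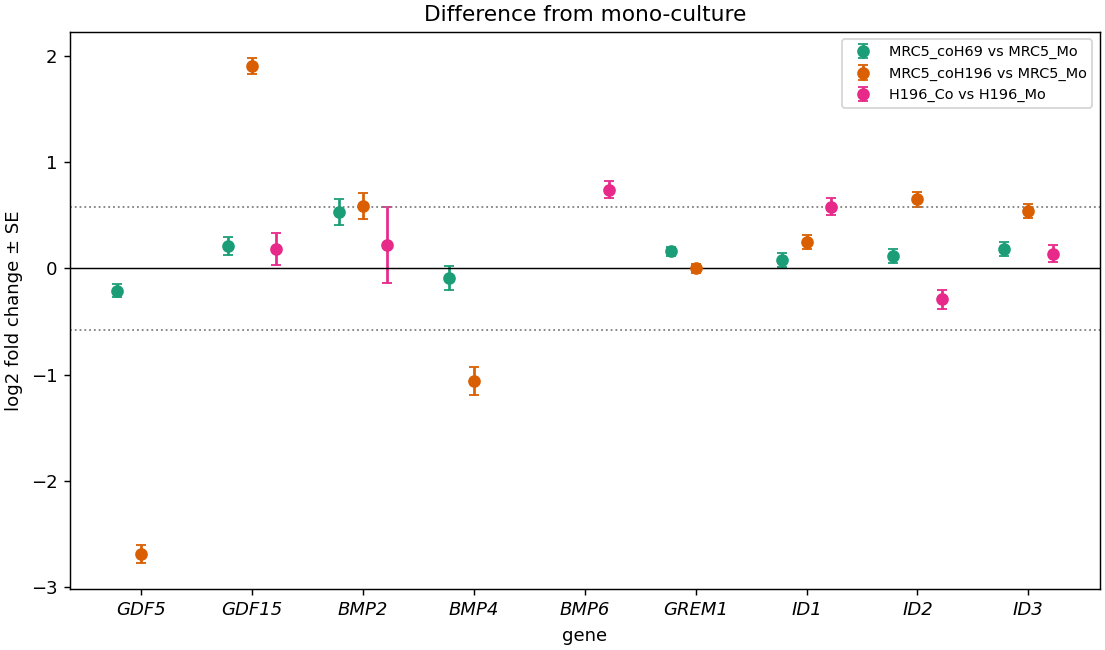
Log2 fold change ± SE against the mono-culture of the same line (y axis, linear) for each gene that passed the filter on low counts (x axis), by comparison. Dotted lines mark 0.58 in either direction. GDF5, GDF15 and BMP4 stood apart from 0 in MRC5_coH196 and near it in MRC5_coH69, and BMP6 and ID1 were the highest in H196_Co.

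The limits used for a differentially expressed gene (DEG) were an adjusted p under 0.05 in edgeR's quasi-likelihood test and an absolute log2 fold change above 0.58. In MRC5_coH196 against MRC5_Mo, 31.9% of all 12819 genes tested were DEGs, and 5 of the 8 genes tested here lay past the same limits. GDF15, BMP2 and ID2 were higher, as were 17.2% of all genes, and GDF5 and BMP4 lower, as were 14.7%. For 7 of the 8 the libraries of both groups stood apart, as for 75.5% of all genes. In MRC5_coH69 against MRC5_Mo 0.554% of genes were DEGs and 0 of the 8 lay past the limits (background 0.421% higher and 0.133% lower), and 4 of the 8 had groups that stood apart, against 25.7% of all genes. Between the co-cultures 28.2% were DEGs and 3 of 8 lay past the limits, with GDF15 higher (15.2% of all genes) and GDF5 and BMP4 lower (13.1%), and 6 of the 8 stood apart against 73.1%. In H196_Co against H196_Mo 3.86% were DEGs, and of the 6 genes tested BMP6 and ID1 lay past the limits, both higher (3.26% of all genes, with 0.601% lower). The groups stood apart for 2 of these 6 and for 37.2% of all genes. Both MRC5 comparisons with mono-culture share the MRC5_Mo libraries. Since the genes were picked with these differences known, nothing is read from the counts. BMP2 and ID2 in MRC5_coH196 fell short of the limits in 5 and 4 of 14 alternatives, and ID1 in H196_Co in 7 of 13. BMP6 in MRC5 and GDF5, BMP4 and GREM1 in H196 lay under the filter on low counts.

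The rest of the pathway and its surroundings were followed with 8 lists of genes, chosen by function but with earlier results of these data known. The counts, shares and p-values of these lists are therefore not independent of the data and are given as a description. They hold 82 genes in all, of which 54 were tested in each table. Of the 8 lists, 1 holds genes of stress responses that induce GDF15 rather than BMP pathway genes. In MRC5_coH196 against MRC5_Mo 25 of the 54 passed the DEG limits, 19 higher and 6 lower, or 46.3% beside 31.9% of all genes, and their median log2 fold change was 0.35 beside 0.00. On log2(FPKM + 1) and log2(FPKM + 0.1) the same lists gave 11 higher and 7 lower and 14 higher and 9 lower. Between the co-cultures the count was 23 of 54, or 42.6% beside 28.2% of all genes. Of these 18 were higher and 5 lower, and 10 and 5 or 13 and 7 on the 2 FPKM scales. In H196_Co against H196_Mo 7 of 54 passed, all higher, or 13% beside 3.86%. The stress response list alone gave 5 of these 7. It also gave 7 of the 25 in MRC5_coH196 against MRC5_Mo and 7 of the 23 between the co-cultures.

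**Figure D4:**
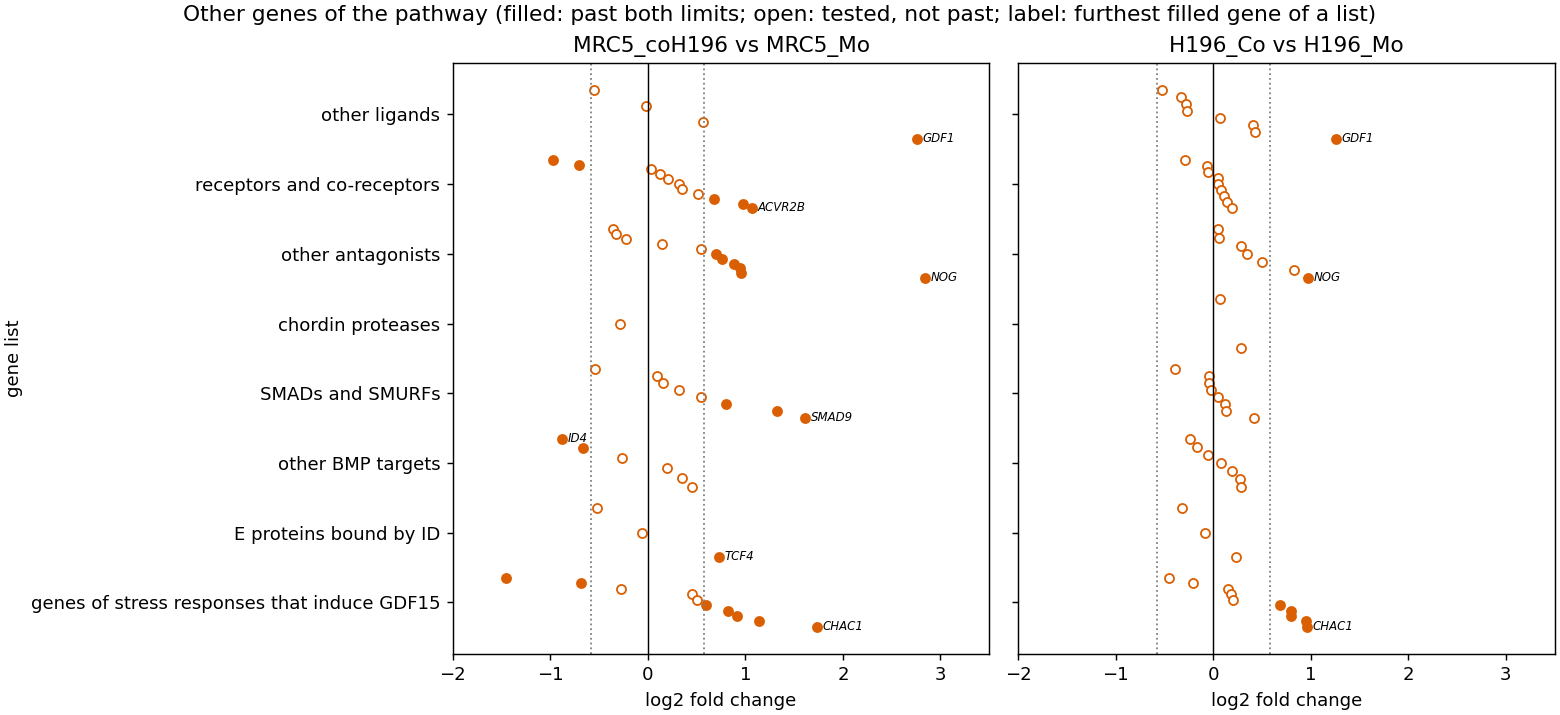
Log2 fold change (x axis, linear) of the 54 listed genes tested in MRC5 (left) and in H196 cells (right), by list (y axis). Filled points passed both DEG limits, open points did not, dotted lines mark 0.58, and the furthest filled gene of a list is named. The filled points among antagonists, SMADs and SMURFs are all on the higher side in MRC5_coH196.

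Of 11 antagonists tested in MRC5_coH196 cells 6 rose and 0 fell past the limits, or 54.5% beside 31.9% of all genes, and 5 did not pass. NOG, the secreted noggin that blocks BMP2, BMP4 and GDF5, rose from 4.49 ± 0.936 to 28.6 ± 2.54 FPKM (SD, n = 3), with a log2 fold change of 2.84 (SE 0.1) and an adjusted p of 2.87e-18 in edgeR. It rose by 2.99 against MRC5_coH69 (adjusted p 1.74e-18). NBL1, a relative of gremlin whose locus overlaps MINOS1, rose by 0.96 (adjusted p 4.18e-13). FSTL3, a follistatin relative that binds activins and some GDFs, rose by 0.94 (adjusted p 2.74e-12), and BMPER, which binds BMPs outside the cell, by 0.88 (adjusted p 9.88e-11). CRIM1, which is named after its value was seen, rose by 0.70. In H196_Co cells 1 of 7 antagonists passed, or 14.3% beside 3.86% of all genes. It was again NOG, which rose from 1.71 ± 0.31 to 3.15 ± 0.589 FPKM (log2 fold change 0.97, SE 0.18, adjusted p 0.000821). Whether NOG differed between the responses of the 2 lines was not tested.

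Among 11 receptors and co-receptors tested in MRC5_coH196, 3 rose and 2 fell past the limits, or 45.5% beside 31.9% of all genes. BMPR2, the type II receptor for BMPs, rose from 11 ± 0.373 to 19.3 ± 1.33 FPKM (log2 fold change 0.98, SE 0.047, adjusted p 1.16e-15). ACVR2B, a type II receptor shared with activins, rose by 1.07 (adjusted p 5.71e-06) at only 0.44 FPKM, and on log2(FPKM + 1) it was at 0.22 and short of the limits. ENG, the co-receptor endoglin, fell from 115 ± 1.28 to 62.1 ± 2.11 FPKM (log2 fold change −0.71, adjusted p 8.28e-12). BMPR1B, a type I receptor preferred by GDF5, fell by 0.97 on the log2 scale (adjusted p 0.00743) at 0.103 FPKM, close to the floor, and did not pass without the first MRC5_coH196 library (−0.70, adjusted p 0.0579) or on log2(FPKM + 1), where it was at −0.15. RGMB, a BMP co-receptor, rose from 68.7 ± 1.86 FPKM in MRC5_coH69 to 122 ± 1.29 FPKM in MRC5_coH196 (adjusted p 1.22e-16).

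Inside the cell, 3 of 8 SMAD and SMURF genes rose past the limits in MRC5_coH196 and 0 fell past them. This share, 37.5%, is near the 31.9% of all genes. SMAD9, one of the BMP-activated SMADs, rose from 3.58 ± 0.25 to 9.81 ± 0.573 FPKM (log2 fold change 1.61, SE 0.064, adjusted p 3.79e-17). SMAD7, an inhibitory SMAD that BMP and TGF-β signals both induce, rose from 9.41 ± 0.622 to 19.7 ± 1.9 FPKM (1.32, adjusted p 2.44e-15). SMURF2, a ubiquitin ligase that SMAD7 brings to receptors, rose by 0.80 (adjusted p 4.86e-14). SMAD6, the inhibitory SMAD more particular to BMP signals, was at 7.37 ± 0.523 and 7.78 ± 0.444 FPKM and did not pass. SMAD1, named after its value was seen, was at −0.54 on the TMM scale and −0.49 on log2(FPKM + 1), short of the fold limit. On log2(FPKM + 0.1) it was at −0.61 (limma adjusted p 0.000641) and lay past the limits. Of 6 other BMP targets, 2 fell past the limits in MRC5_coH196, a share of 33.3% near the 31.9% of all genes. They were the fourth ID gene ID4, by 0.88 on the log2 scale (adjusted p 6.9e-06), and the homeobox gene MSX2, by 0.66 (adjusted p 2.55e-06). Without the second MRC5_coH196 library MSX2 was at −0.57, short of the fold limit. Of the 3 E proteins that ID proteins bind, TCF4 rose by 0.73 (adjusted p 3.94e-11) in MRC5_coH196, and the others did not pass (33.3% beside 31.9% of all genes). Which of them passed depended on the scaling. On log2(FPKM + 1) TCF4 was at 0.49 and fell short, while TCF12, at −0.52 on the TMM scale, was at −0.69 (limma adjusted p 6.3e-08) and lay past the limits. In H196_Co cells 0 of the 29 receptor, chordin protease, SMAD, target and E protein genes tested passed the DEG limits in edgeR, beside 3.86% of all genes. Nor did any in DESeq2 or limma. Their log2 fold changes in edgeR ran from −0.39 to 0.42, and 7 had an unadjusted p under 0.05, all of them with an adjusted p under 0.05 too but short of the fold limit. In DESeq2, which tested 33 of these genes at −0.68 to 1.18, the 2 counts were 7 and 5, and in limma 5 and 3.

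Genes of stress responses known to raise GDF15, that is of the integrated stress response and p53 pathway plus EGR1, are the list most often past the limits, at 70% of those tested. What part these genes have in the level of GDF15 was not tested. In MRC5_coH196 7 of 10 passed, 5 higher and 2 lower, beside 31.9% of all genes. EGR1 was among the lower, going from 40.4 ± 1.03 to 22.1 ± 1.55 FPKM (log2 fold change −0.69, edgeR adjusted p 4.2e-12). CHAC1, a glutathione-degrading enzyme induced by ATF4, rose from 60.9 ± 1.39 to 181 ± 14.9 FPKM (log2 fold change 1.73, SE 0.06, adjusted p 2.01e-18). DDIT3, the stress factor CHOP, rose by 1.14 (adjusted p 4.7e-11), although its locus overlaps other coding genes. ATF4 itself rose by 0.82 against MRC5_Mo (adjusted p 5.66e-14) and by 0.89 against MRC5_coH69 (adjusted p 1.57e-14). The p53 targets went apart, since CDKN1A, the cell cycle inhibitor p21, rose by 0.91 (adjusted p 7.66e-16) and TP53I3 fell from 46.2 ± 1.04 to 14.8 ± 1.27 FPKM (log2 fold change −1.45, adjusted p 4.99e-17). MDM2 was at −0.28 (adjusted p 3.33e-05) and SESN2 at 0.50 (adjusted p 2.73e-08), both short of the fold limit and named after their values were seen. In H196_Co 5 of 10 passed, all higher, or 50% beside 3.86% of all genes. Among them were CHAC1 by 0.96 (adjusted p 2.35e-05), EGR1 by 0.95 (adjusted p 3.14e-06), DDIT3 by 0.80 (adjusted p 5.05e-06) and ATF3 by 0.80 (adjusted p 0.00105). GDF15 itself was within the spread of the libraries in H196 cells.

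Of other ligands tested, 1 of 4 passed in MRC5_coH196 (25% beside 31.9% of all genes) and 1 of 8 in H196_Co (12.5% beside 3.86%). Both times it was GDF1. In H196_Co it rose from 0.413 ± 0.0351 to 0.997 ± 0.0862 FPKM (log2 fold change 1.26, SE 0.24, adjusted p 0.000877), and in MRC5_coH196, where it is named after its value was seen, by 2.76 at 0.673 ± 0.0751 FPKM. GDF1 lies within the locus of CERS1 on the same strand, and reads of the 2 genes may have been split between them. On log2(FPKM + 1) GDF1 did not pass, at 0.58 in MRC5_coH196 and 0.50 in H196_Co, but it passed on log2(FPKM + 0.1). GDF11, named after its value was seen, was at −0.55 in MRC5_coH196 on the TMM scale and did not pass. On log2(FPKM + 1) it was at −0.74 (limma adjusted p 2.06e-05) and on log2(FPKM + 0.1) at −0.85, past the limits on both. The 1 chordin protease tested in MRC5, BMP1, did not pass. In MRC5_coH69 against MRC5_Mo 0 of the 54 genes passed the DEG limits by edgeR or limma, beside 0.554% of all genes in edgeR. By DESeq2 0 of the genes tested passed. An unadjusted p under 0.05 was found for 21 in edgeR, 17 in limma, and 15 of the 73 listed genes tested by DESeq2. Without the fold limit 8 passed in edgeR, 6 higher and 2 lower. The furthest of these, named after its value was seen, was FST, the activin and BMP antagonist follistatin, at −0.55 (adjusted p 1.03e-07), and it passed as a DEG at −0.60 when the first MRC5_Mo or the third MRC5_coH69 library was left out. FST was also lower in MRC5_coH196 than in MRC5_Mo, at 102 ± 5.08 against 145 ± 11.2 FPKM (SD, n = 3). Its log2 fold change there was −0.33 (edgeR adjusted p 4.35e-06), short of the fold limit.

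Genes whose profile lay nearest to that of each gene were searched over all libraries in which it was tested, by the distance between log2 CPM values centred on mono-culture. The search was limited to genes that averaged 10 CPM or more. Over 9 MRC5 libraries GDF5 lay nearest to PIK3R3, RAB7B and SLIT2, whose log2 fold changes in MRC5_coH196 were −2.71, −2.58 and −2.49. BMP4 lay nearest to ELOVL2, PLEKHA4 and MIPEP, and GREM1 to GORAB, SH3RF3 and ATG13. Over all 15 libraries GDF15 lay nearest to DUSP1, B4GALT4 and MPP2, at 1.97, 1.88 and 1.90 in MRC5_coH196. BMP2 lay nearest to TPM1, PGM1 and ING4, ID1 to NAB2, ADGRB2 and DDX41, ID2 to LYSMD3, CYP2U1 and RNF13, and ID3 to NR1H2, POLD4 and KLF10. Over 6 H196 libraries BMP6 lay nearest to UAP1, TNIP1 and RNF24. The distance per library was 0.0173 for the closest pair, BMP6 and UAP1, and 0.282 for the loosest nearest pair, BMP2 and TPM1. These are descriptions of likeness over few libraries, in which many genes share the contrast between MRC5_coH196 and the other groups.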

How the data were processed

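Expected counts, which the authors estimated per gene and left without scaling, and FPKM values, which the authors scaled for gene length and sequencing depth, were taken from 1 deposited table per cell line. Per the labels, the submitters' processing notes name HISAT, HISAT2 2.1.0, Bowtie2 2.3.4.3, RSEM 1.3.1 and GRCh38.p13, and the methods name SOAPnuke for read cleaning. The deposited columns of the authors' own comparisons (fold changes, p-values and q-values) and 30 other per-library columns were not used, nor were second copies of the tables, whose numeric columns are equal. The 2 tables were normalized separately and were not tested against each other.

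Counts were rounded and fitted in R 4.3.3 with edgeR 4.0.16 (TMM, filterByExpr with a minimum count of 10, quasi-likelihood tests, two-sided, Benjamini-Hochberg over all genes tested), with the 9 MRC5 libraries in 1 model and the 6 H196 libraries in another. SE values are the log2 fold change over the square root of F. No pair of libraries agreed within sampling noise, and none was dropped. DESeq2 1.42.0, limma 3.58.1 on log2 FPKM with a pseudocount of 1 or 0.1, other fold limits, other filters, only the 2 groups compared, a replicate block and single libraries left out were tried as alternatives. The fits were tested on simulated data.

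The 9 genes, the pathway lists and the markers were chosen with earlier results of these data known. Named are the 9 genes, in each list and comparison up to 4 genes past the limits with the largest fold change and a mean of at least 1 CPM, and the 3 nearest profiles with a mean of at least 10 CPM. Coordinates are the table's, and a gene listed on more than 1 contig has none. Intervals and floors cover counting error only. The result of 1 gene is not reported here.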

Additional observations from a re-analysis of the deposited data

Results flagged for a closer look

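Genes of the pathway lists that passed the limits in MRC5_coH196 or H196_Co cells were compared between settings, as were the 9 BMP, GDF, GREM1 and ID genes. Listed first are genes whose groups stood apart in CPM in opposite directions in different contrasts. Groups stood apart for 75.5% of all genes in MRC5_coH196, 25.7% in MRC5_coH69 and 37.2% in H196_Co, each against mono-culture. The share of all genes that moved in opposite directions was not counted, so nothing is read from how many are listed. DDIT3 differed from MRC5_Mo by 1.14 on the log2 scale in MRC5_coH196 and by −0.19 in MRC5_coH69, and RGMB by 0.68 and −0.32. In MRC5_coH69 the edgeR adjusted p was 0.323 for DDIT3 and 1.55e-05 for RGMB, both short of the fold limit. Both contrasts share the MRC5_Mo libraries, and MRC5_coH196 was therefore compared with MRC5_coH69 directly. DDIT3 was higher there by 1.33 (edgeR adjusted p 4.58e-12), and RGMB stood at 122 ± 1.29 against 68.7 ± 1.86 FPKM (SD, n = 3, edgeR adjusted p 1.22e-16). A rise with H196 cells alone would also show in this direct comparison, so it cannot tell whether either gene fell beside H69 cells. Between cell lines, ENG was at −0.71 in MRC5_coH196 and 0.19 in H196_Co, TCF4 at 0.73 and −0.32, and EGR1 at −0.69 and 0.95, each against its own mono-culture. The 2 lines come from tables normalized separately, and these 3 differences were not tested. In FPKM the ENG libraries of H196_Mo and H196_Co overlapped, at 3.93 to 4.58 and 4.53 to 4.6. GDF5 and BMP4 were lower in all MRC5_coH196 libraries than in MRC5_Mo, at −2.69 and −1.06 on the log2 scale, and higher in all H196_Co libraries than in H196_Mo. In H196 cells both were under the filter on low counts and not tested, with a mean of 0.524 CPM of GDF5 (7, 9 and 10 counts) and 0.262 CPM of BMP4 (5, 4 and 4 counts) in H196_Co. In FPKM the BMP4 libraries there overlapped. In FPKM alone, ID2 was higher in all MRC5_coH196 and lower in all H196_Co libraries than in mono-culture, and GREM1 was lower in all MRC5_coH196 and higher in all MRC5_coH69 libraries. Their groups overlapped in CPM, for ID2 in H196 cells and for GREM1 in MRC5_coH196. These differences were not tested.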

How the results depend on the processing

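With 3 libraries per group an exact test of a single gene cannot give a p below 0.1, so all tests borrow spread across genes. GDF5, GDF15, BMP4 and BMP6 stayed on the same side of the limits in every alternative in which they were fitted. BMP2 in MRC5_coH196 fell short in 5 of 14 alternatives (both FPKM scales, and without MRC5_coH196 replicate 1, MRC5_Mo replicate 2 or MRC5_Mo replicate 3; 0.30 to 0.73), ID2 there in 4 of 14 (both FPKM scales, and without MRC5_coH196 replicate 3 or MRC5_Mo replicate 1; 0.47 to 0.72), and ID1 in H196_Co in 7 of 13. ID3 in MRC5_coH196 passed without MRC5_coH196 replicate 2 or MRC5_Mo replicate 2, BMP2 in MRC5_coH69 without MRC5_Mo replicate 1 or MRC5_coH69 replicate 3, and ID2 between the co-cultures without MRC5_coH196 replicate 1. Of 413 alternative values of the 9 genes 392 moved by less than the spread and 21 by more, and 0 past the limits changed sign.

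The count of genes of the 8 lists past the limits in MRC5_coH196 against MRC5_Mo, 25, was 43 with no fold limit, 8 with a limit of 1 and 24 to 26 without single libraries. That in MRC5_coH69, 0, was 8 with no fold limit and 0 to 1 without single libraries. The count between the co-cultures, 23, was 38, 8 and 23 to 25, and 15 on log2(FPKM + 1). The count in H196_Co, 7, was 21, 1 and 7 to 8, and 4 on log2(FPKM + 1). The cause of the lower counts on FPKM was not tested. Same-numbered libraries did not deviate together (correlations from −0.151 to 0.081), so the numbers were not taken to pair samples, and with a replicate block the 4 counts were 25, 0, 23 and 7.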
